A study of Homo sapiens with 24 samples.

Results

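The regions described here are 622 distal regions that carried less H3K4me1 and less H3K27ac in every ZNF436 knockdown library than in any control library. They were chosen from 153244 regions counted in all libraries, in units of CPM, the reads in a region times 1000000 over the library's total count. Distal means a mean H3K4me3 under 2 CPM over its 6 libraries, and a region also had to reach a mean of 3 CPM or more in both H3K4me1 and H3K27ac. These limits left 40307 regions, of which the 622 made up 1.54%. The chosen regions were those in which the highest of the 3 knockdown libraries lay below the lowest of the 3 control libraries in both marks. Their differences in H3K4me1 and H3K27ac were therefore set by the choice, and they are given below as a description, without a test.

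The study profiled histone marks by CUT&Tag, in which an antibody guides a transposase to cut and tag the DNA around a marked nucleosome. The cells were ventricular-like cardiomyocytes differentiated from H9, a line of human embryonic stem cells, and taken at day 15 of differentiation. Cells labelled ZNF436kd, in which the zinc finger protein gene ZNF436 was knocked down, were compared with cells labelled ctrl. Each of the 4 marks H3K4me1, H3K27ac, H3K4me3 and H3K9me3 has 3 knockdown and 3 control libraries. All libraries come from 1 cell line. The sources used here do not give how the knockdown was made, what the control cells received or whether replicates were separate cultures, so p-values cover only the spread among libraries, which could be technical.

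H3K4me1 is found at enhancers, the distal DNA elements that raise the transcription of genes at a distance, and H3K27ac is added to those that are active. H3K4me3 marks the start sites of transcribed genes, and H3K9me3 marks silenced heterochromatin. Zinc finger proteins with a KRAB domain recruit the machinery that lays down H3K9me3, largely over transposons. In cardiomyocytes, distal regions with H3K27ac are known to lie near genes of the contractile apparatus and of the heart's transcription factor network.

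Library totals were between 3920283 and 4936265 counts for H3K4me1, between 2955710 and 3681687 for H3K27ac, between 11023905 and 13933927 for H3K4me3 and between 2103185 and 2880412 for H3K9me3. A value of 1 CPM thus stood for between 3.92 and 4.94 reads in H3K4me1, between 2.96 and 3.68 in H3K27ac, between 11.0 and 13.9 in H3K4me3 and between 2.10 and 2.88 in H3K9me3. No annotation of the files' build (hg19) was used, so regions are given by position, and neither the targeted gene nor markers of cardiomyocytes or of other cell types were checked.

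Control replicate 3 was the control library closest to the knockdown group. It held the lowest control value in 307 of the 622 regions (49.4%) in H3K4me1 and in 293 (47.1%) in H3K27ac, ties included. On the other side, knockdown replicate 2 held the highest knockdown value in 245 regions (39.4%) in H3K4me1 and in 240 (38.6%) in H3K27ac.

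The number of regions lower in both marks was above the counts that chance would give on average. All regions share the same libraries, so the count for 1 order can lie far from that average. The spread of such counts was not tested. If the 6 libraries of a mark were interchangeable, 1 of 20 orders would place the 3 knockdown libraries lowest, and if the marks were also independent, 1 in 400 of the distal regions, or 100.8, would be chosen. In H3K4me1 alone 3001 of the distal regions were lower without overlap (background 7.45%), and in H3K27ac alone 3848 were (9.55%). From these shares, 286.5 regions would be lower in both marks if the marks were independent, and the 622 observed were 2.17 times that number. Opposite directions in the 2 marks were rarer than those shares would give. H3K4me1 was lower and H3K27ac higher in 57 regions, against 277.8 from the shares, and H3K4me1 was higher and H3K27ac lower in 85 regions, against 317.6. The mirror set, higher in both marks, held 765 regions (1.90%), against 308.0 from the shares (8.25% of the distal regions were higher without overlap in H3K4me1 and 9.26% in H3K27ac). The sources used here do not say whether libraries of different marks were made from the same cells, so independent spread in the marks cannot be told apart from spread they share.

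Summed over the 622 regions, H3K27ac differed more than H3K4me1. H3K4me1 summed to 8692, 9201 and 8931 CPM in knockdown replicates 1, 2 and 3, against 14423, 14041 and 12531 CPM in control replicates 1, 2 and 3. H3K27ac summed to 4049, 4519 and 4162 CPM in the knockdown libraries, against 10039.6, 9639 and 8005 CPM in the control libraries. In both marks the knockdown libraries lay close together and control replicate 3 was the lowest control. The mean sums were 8942 ± 255 CPM in knockdown and 13665 ± 1000.4 CPM in control cells for H3K4me1 (SD, n = 3 each), a ratio of 0.654. For H3K27ac they were 4243 ± 246 CPM in knockdown and 9228 ± 1078 CPM in control cells (SD, n = 3 each), a ratio of 0.460. Over the other 39685 distal regions the same ratios were 0.985 and 1.00. In bulk libraries, fewer cells that carry a mark and less of the mark per cell cannot be told apart.

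**Figure D1:**
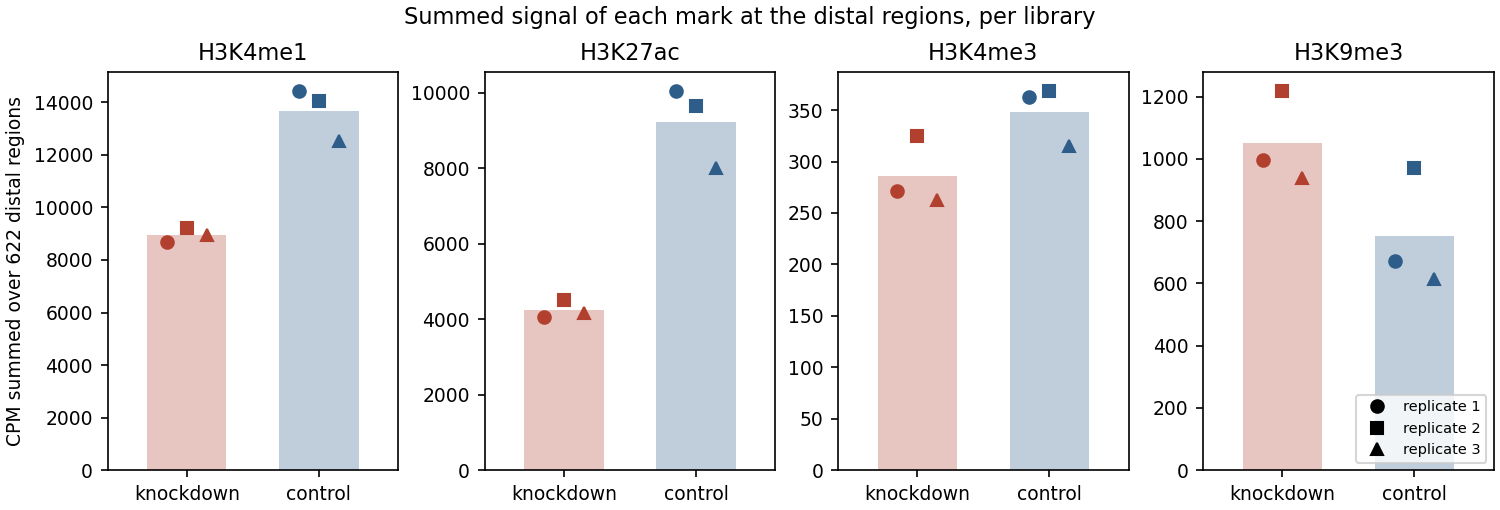
CPM summed over the 622 distal regions in each library, with knockdown libraries left of control libraries, 1 panel per mark. Bars are group means and symbols are replicates; the sums of H3K4me1 and H3K27ac separate as the choice of regions requires, while those of H3K4me3 and H3K9me3, which took no part in that choice as a contrast, overlap.

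Region by region, the median log2 ratio of mean CPM, knockdown over control, was -0.71 in H3K4me1 (quartiles -0.91 and -0.51) and -1.35 in H3K27ac (quartiles -1.80 and -0.94). The ratio of H3K4me1 spanned -2.32 to -0.19 and that of H3K27ac -5.37 to -0.21. H3K27ac was at least 2-fold lower in 438 regions (70.4%) and H3K4me1 in 124 (19.9%), with 112 regions passing that size in both marks. H3K27ac differed by more than H3K4me1 in 562 regions (90.4%). The same held in 609 regions (79.6%) of the mirror set, with median log2 ratios of 0.92 in H3K4me1 and 1.39 in H3K27ac. Over all 40307 distal regions, the ratios of H3K27ac also spread more widely. With 0.5 CPM added, their quartiles were -0.65 and 0.40, against -0.33 and 0.31 in H3K4me1. Across the 622 regions the log2 ratios of the 2 marks had a Spearman rho of 0.39, and the mean levels one of 0.72, where all regions share the same libraries and wide regions hold more reads of both marks.

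**Figure D2:**
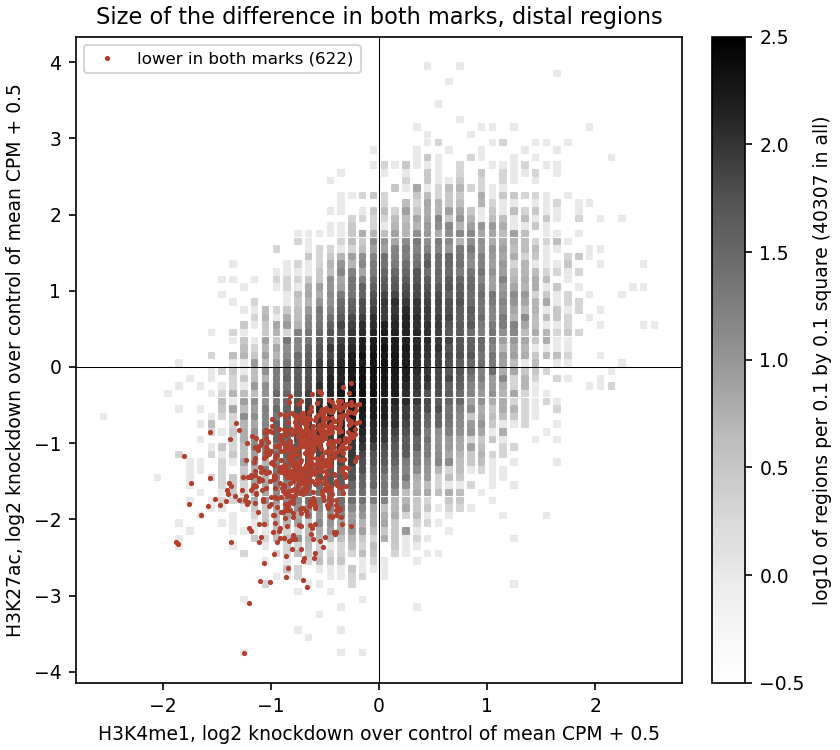
Log2 ratio, knockdown over control, of mean H3K4me1 (x axis) and mean H3K27ac (y axis) CPM with 0.5 CPM added to each mean, for 40307 distal regions in grey (darker squares hold more regions) and the 622 chosen regions in red. The red points fill the lower left without forming a group apart from the grey cloud, and most lie farther below 0 on the H3K27ac axis than left of 0 on the H3K4me1 axis.

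Regions with more H3K27ac differed less between groups. The 175 regions with a mean H3K27ac of 3 to 5 CPM had a median log2 ratio of -1.78 in H3K27ac and -0.89 in H3K4me1. The 74 regions with 20 CPM or more had -0.86 and -0.50. Their median widths were 872 bp in the low class and 3460.5 bp in the high class, and with few reads only a large ratio keeps the groups apart. The 622 regions made up 1.27% of the distal regions with 3 to 5 CPM of H3K27ac and 1.95% of those with 20 CPM or more. By H3K4me1 level the share was 0.842% at 3 to 5 CPM and 2.73% at 20 CPM or more, and by width it was 1.02% under 1000 bp and 2.79% at 2000 bp or more.

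The depth behind these differences was modest. The median over regions of the highest knockdown count was 53.5 reads and that of the lowest control count 58 reads in H3K4me1. In H3K27ac these medians were 19 reads in knockdown and 24 reads in control cells. A gap between groups was taken as the smaller over the 2 marks of the log2 ratio of the lowest control CPM to the highest knockdown CPM, each with 0.5 CPM added. It was under 0.1 in 277 of the 622 regions (44.5%), reached 0.5 in 20 and reached 1 in 1.

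That 1 region with the widest gap was chr8:143659008-143659771 (hg19), 764 bp wide. H3K4me1 was 2.81, 1.19 and 2.03 CPM in the knockdown libraries, against 7.33, 8.44 and 10.01 CPM in the control libraries. H3K27ac was 0.602, 0.338 and 1.09 CPM in the knockdown libraries, against 4.70, 5.26 and 6.18 CPM in the control libraries. Every control library held more than 2 times the H3K4me1 of every knockdown library, and the gap in H3K27ac was wider still. A second of the 622 regions ended at position 143681976, so that both fit within 22969 bp.

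Next came chr5:100125239-100126550, with 17.6, 17.5 and 16.2 CPM of H3K4me1 in the knockdown libraries, against 43.1, 35.6 and 31.5 CPM in the control libraries. H3K27ac there was 0, 2.71 and 3.26 CPM in the knockdown libraries, against 5.65, 9.86 and 5.86 CPM in the control libraries. H3K4me1 was nearly equal in the 3 knockdown libraries, and knockdown replicate 1 had no H3K27ac read. At chr2:169386448-169386991 the H3K4me1 values were 2.55, 2.84 and 3.24 CPM in the knockdown libraries, against 5.61, 7.98 and 8.01 CPM in the control libraries, and H3K27ac was 1.81, 1.01 and 1.09 CPM, against 7.53, 9.53 and 5.53 CPM. The smallest control value belonged to replicate 1 in H3K4me1 and to replicate 3 in H3K27ac.

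At chr4:38101665-38102257, H3K4me1 was 1.53, 3.56 and 3.24 CPM in the knockdown libraries, against 6.04, 9.13 and 6.01 CPM in the control libraries. H3K27ac there was 1.20, 2.37 and 0 CPM in the knockdown libraries, against 5.65, 10.2 and 4.55 CPM in the control libraries. Control replicate 2 stood highest in both marks. The region chr22:45124180-45126452, 2273 bp wide, had 12.5, 11.9 and 12.8 CPM of H3K4me1 in the knockdown libraries, against 41.9, 22.1 and 20.8 CPM in the control libraries, and 8.43, 7.78 and 7.88 CPM of H3K27ac, against 35.8, 23.7 and 13.7 CPM. Here the knockdown libraries were alike and the control libraries spread widely, with replicate 1 highest in both marks.

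**Figure D3:**
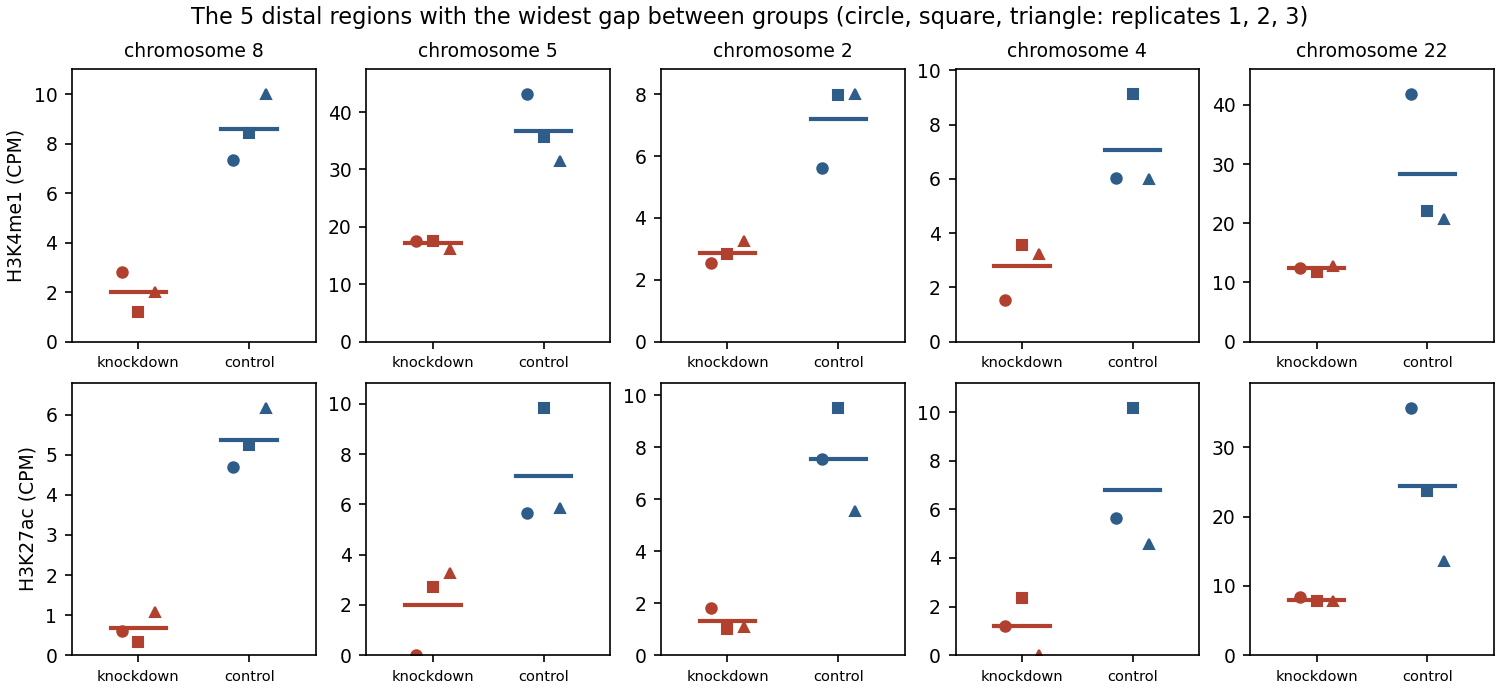
H3K4me1 (upper row) and H3K27ac (lower row) in CPM for the 5 regions with the widest gap between groups, named by chromosome, with knockdown libraries left of control libraries. Lines are group means and symbols replicates 1, 2 and 3; each panel has its own axis from 0, and no knockdown symbol reaches a control symbol.

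The other 5 regions of the 10 with the widest gaps were chr16:66186051-66187929, chr2:28447805-28448427, chr6:107986358-107987002, chr1:215659110-215660177 and chr4:54652258-54653439. At the region of chromosome 16, H3K27ac was 3.01, 5.41 and 3.80 CPM in the knockdown libraries, against 19.4, 27.3 and 9.11 CPM in the control libraries. At the region of chromosome 4, H3K4me1 was 8.93, 7.11 and 8.91 CPM in the knockdown libraries, against 14.5, 14.1 and 13.5 CPM in the control libraries. The first of these differences was carried mostly by control replicates 1 and 2, the second by all 3 control libraries about equally.

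The regions with the highest H3K27ac were wide and differed less. At chr2:238222978-238225471 H3K27ac was 62.4, 68.0 and 56.0 CPM in the knockdown libraries, against 71.5, 83.4 and 84.6 CPM in the control libraries, with H3K4me1 at 14.5, 15.9 and 21.7 CPM, against 28.7, 28.5 and 23.5 CPM. At chr15:42235668-42240175 H3K27ac was 43.7, 53.8 and 61.7 CPM in the knockdown libraries, against 69.9, 65.0 and 66.4 CPM in the control libraries. The log2 ratio of H3K27ac was -0.36 at the first and -0.34 at the second. At chr22:43389591-43393250 it was larger, -0.82, with 35.5, 47.7 and 36.1 CPM in the knockdown libraries, against 104, 53.2 and 54.3 CPM in the control libraries, of which replicate 1 stood apart.

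At chr9:127044465-127050252 the log2 ratio of H3K27ac was -1.19, the lowest of the 10 regions with the highest H3K27ac. H3K27ac was 34.3, 31.8 and 30.4 CPM in the knockdown libraries, against 88.8, 90.7 and 41.3 CPM in the control libraries. H3K4me1 there was 39.0, 55.7 and 51.3 CPM in the knockdown libraries, against 69.9, 62.3 and 70.1 CPM in the control libraries. Control replicates 1 and 2 were close to each other in H3K27ac, and control replicate 3 lay nearer to the knockdown libraries than to them. The remaining 6 were chr17:19188357-19194793, chr1:52155535-52159669, chr10:121009696-121015933, chr2:43570380-43575773, chr11:68107762-68111813 and chr2:161076510-161080384, with log2 ratios of H3K27ac between -0.94 and -0.49.

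Just inside the rule, groups nearly touched. At chr13:27976925-27979000 H3K27ac was 15.4, 25.4 and 26.3 CPM in the knockdown libraries, against 39.2, 31.9 and 26.3 CPM in the control libraries, so that knockdown replicate 3 and control replicate 3 were level to the printed digits. The other regions with the smallest gaps were chr11:19420302-19421620 and chr1:48378248-48379717. Just outside, at chr18:45978576-45981326, H3K27ac was 9.64, 16.9 and 8.15 CPM in the knockdown libraries, against 33.6, 35.5 and 16.9 CPM in the control libraries, with the highest knockdown value above the lowest control value beyond the printed digits. The regions chr3:32898135-32900296 and chr1:235157787-235159817 missed the rule narrowly too, in H3K4me1.

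Choosing the regions anew on 2 of the 3 replicate numbers left 1 knockdown and 1 control library of each mark unused, in which the direction could be read apart from the choice. In H3K27ac, with numbers 1, 2 and 3 left out in turn, 74.7%, 67.0% and 60.6% of the regions chosen as lower were lower in the unused knockdown library, against 52.5%, 50.8% and 50.3% of all distal regions over the limits. In H3K4me1 the shares were 68.5%, 54.3% and 59.9%, against 48.9%, 45.2% and 51.1% of all distal regions. The chosen regions exceeded the distal background in all 6 of these readings, by the least in H3K4me1 with numbers 2 and 3 left out. Within a reading, all regions share the same 1 knockdown and 1 control library, so regions are not replicates. The 6 readings also reuse libraries and are not independent of each other. Lower in both marks at once were 54.7%, 40.7% and 37.7% of the regions chosen anew, against 31.9%, 30.3% and 28.0% of all distal regions.

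The differences in the unused libraries were smaller than in the libraries used for choosing. With numbers 1, 2 and 3 left out, the median log2 ratio of H3K27ac was -0.67, -0.42 and -0.24 in the unused libraries, against -1.12, -1.15 and -1.18 in those used. In H3K4me1 it was -0.32, -0.08 and -0.13 in the unused libraries, against -0.61, -0.65 and -0.70 in those used. For the 622 regions, which were chosen on all 3 numbers, no unused library of these marks was left in which to read the size. The sets chosen on 2 numbers held 1895, 3012 and 3777 regions.

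**Figure D4:**
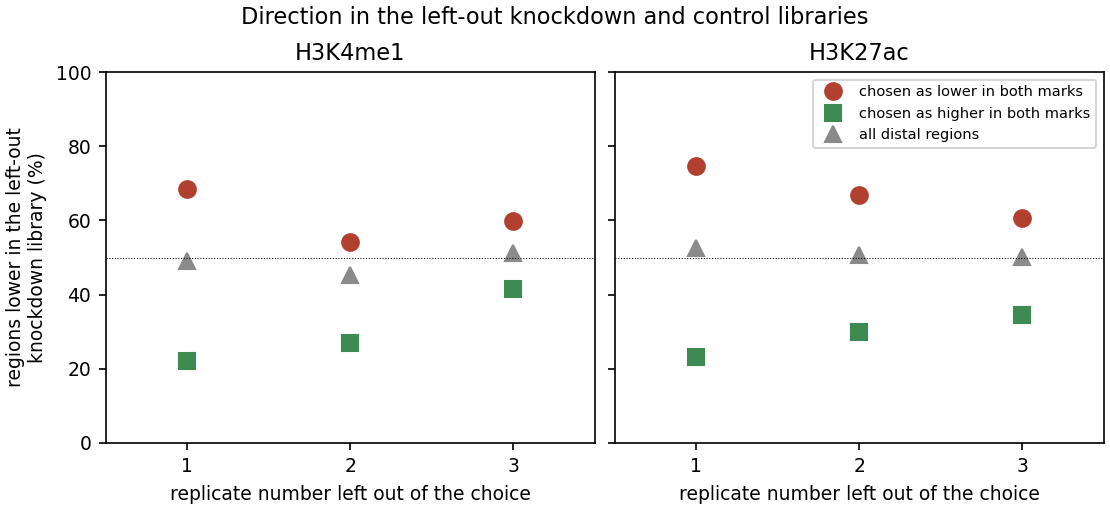
Percent of regions lower in the left-out knockdown library than in the left-out control library, for H3K4me1 (left) and H3K27ac (right), with each replicate number left out in turn. Circles are regions chosen as lower in both marks on the other 2 numbers, squares those chosen as higher, triangles all distal regions; circles lie above triangles and squares below them in every column, closest together where number 2 or 3 was left out.

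H3K4me3 was kept scarce at these regions by the limit of 2 CPM, while the rule did not use its difference between groups. H3K4me3 leaned lower in knockdown cells. It summed to 271, 325 and 262 CPM in the knockdown libraries, against 363, 368 and 315 CPM in the control libraries. The groups overlapped, knockdown replicate 2 lying above control replicate 3. The mean sums were 286 ± 33.9 CPM in knockdown and 349 ± 29.4 CPM in control cells (SD, n = 3 each), a ratio of 0.821, where the other distal regions gave 1.01. The knockdown mean was lower in 382 of the 622 regions (61.4%) and higher in 236, against a lower mean in 48.8% of the other distal regions. Groups were apart and lower in 53 regions (8.52%; background 4.92%) and apart and higher in 13 (2.09%; background 4.69%).

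Of the 622 regions, 128 had enough H3K4me3 reads for edgeR's quasi-likelihood test, and none passed at a Benjamini-Hochberg adjusted p under 0.05. Over all 26773 regions tested in H3K4me3, 0.187% passed as lower and 0.374% as higher. At an unadjusted p under 0.05, 2 of the 128 were lower and 0 higher, where 2.94% and 2.8% of the 6575 distal regions tested were, and DESeq2 and limma-voom also called 0. The smallest p was at chr10:1658248-1660210. H3K4me3 there was 0.363, 0.788 and 0.810 CPM in the knockdown libraries, against 2.34, 2.15 and 1.51 CPM in the control libraries, without overlap. The log2 fold change was -1.58 (SE 0.56, adjusted p = 0.277, edgeR). This region had enough reads for the test only through its control libraries, where it was higher, so these figures are a description. The next smallest p were at chr1:18027154-18028626 (adjusted p = 0.439, edgeR) and chr11:19933777-19935589 (adjusted p = 0.494, edgeR), both with lower means in knockdown cells. The latter also needed its control libraries to have enough reads.

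H3K9me3, the mark of silenced chromatin, took no part in the choice. It summed to 996, 1218 and 938 CPM in the knockdown libraries, against 671, 970 and 615 CPM in the control libraries. Control replicate 2 lay between knockdown replicates 3 and 1, so the groups overlapped. The mean sums were 1051 ± 148 CPM in knockdown and 752 ± 191 CPM in control cells (SD, n = 3 each), a ratio of 1.40, where the other distal regions gave 1.11 with groups that did not overlap. Counted by region, the 622 looked like the rest: the knockdown mean was higher in 389 (62.5%), against 62.2% of the others, and the median log2 ratio of the means with 0.5 CPM added was 0.30 in both. Groups were apart and higher in 51 regions (8.20%; background 6.72%) and apart and lower in 12 (1.93%; background 1.75%).

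H3K9me3 was too sparse for most single regions to be tested. Between 20.7% and 42.0% of the 622 regions had no H3K9me3 read in a given library, and 21 regions entered edgeR's test, of which none passed. Over all 30565 regions tested in H3K9me3, 0.00327% passed as lower and 0.00654% as higher. At an unadjusted p under 0.05, 0 of the 21 were lower and 1 higher, where 4.2% and 7.17% of the 1311 distal regions tested were. With limma-voom, 0 were called. DESeq2 gave none of the 21 an adjusted p, so it could not call any. That 1 region, chr7:36318186-36321207, had 4.75, 5.99 and 4.86 CPM of H3K9me3 in the knockdown libraries, against 0, 0 and 1.46 CPM in the control libraries (log2 fold change 3.23, SE 1.18, adjusted p = 0.395, edgeR). It passed the filter on read counts through its knockdown libraries, where it was higher, so these figures are a description. Without a filter, 611 of the 622 regions were tested over all 6 libraries and 0 were called (smallest adjusted p = 0.0592, edgeR). Another region, chr10:44202949-44204275, had too few reads to pass the filter with all 6 libraries and is named after its values were seen. Its H3K9me3 was 16.2, 7.98 and 3.47 CPM in the knockdown libraries, against 0, 0 and 0.728 CPM in the control libraries. It was called as higher without knockdown replicate 3, without control replicate 2 or without control replicate 3 (adjusted p under 0.05, edgeR). No other of the 622 was called in these fits, and none was without knockdown replicate 1, knockdown replicate 2 or control replicate 1. With control values this low, only its knockdown values could bring it past the filter on read counts. These calls are therefore a description.

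The chosen regions lay farther from strong H3K4me3 than other distal regions. A region with a mean H3K4me3 of 10 CPM or more, as at the start sites of active genes, was taken as H3K4me3-marked. The median distance to the nearest one was 59413 bp for the 622 regions and 46188 bp for the other distal regions, with 11.1% and 17.1% within 10 kb. In the mirror set it was 52345 bp. The 622 regions were also wider, with a median of 1349 bp against 1071 bp. Neither difference was tested, since level and width bear on the choice.

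Through their nearest H3K4me3-marked regions, 540 in all, the distal regions could be set beside H3K4me3 that the rule had not used. Of these 540, 6 fell and 3 rose in H3K4me3 (edgeR, adjusted p under 0.05), that is 1.11% and 0.556%, where 0.247% and 0.565% of all 14161 H3K4me3-marked regions did. At an unadjusted p under 0.05, 71 were lower (13.1%) and 27 higher (5.00%), against 5.56% and 6.52% of all H3K4me3-marked regions. The share of lower neighbours lay between 8.89% without knockdown replicate 3, where 3.86% of all H3K4me3-marked regions were lower, and 16.1% without control replicate 3, where 7.64% were. Around the mirror set the shares ran the other way, with 30 of 688 neighbours lower (4.36%) and 80 higher (11.6%) at an unadjusted p under 0.05. How far a neighbour is the target of a distal region was not tested.

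H3K27ac at the same neighbours, from libraries that the rule did use elsewhere, gave no region past the adjusted threshold among 507 tested, where 0.0153% of all H3K4me3-marked regions passed as lower and 0.00765% as higher. DESeq2 called 3 as lower and 2 as higher (0.592% and 0.394%), against 0.268% and 0.291% of all H3K4me3-marked regions. With limma-voom 1 was lower and 1 higher (0.197% each), against 0.0842% and 0.275% of all. At an unadjusted p under 0.05 in edgeR, 43 were lower (8.48%) and 12 higher (2.37%), against 3.04% and 4.33% of all H3K4me3-marked regions. Without control replicate 1 the lower share was 3.11% and the higher share 3.30%, against 1.39% and 4.12% of all H3K4me3-marked regions. Without control replicate 3 the lower share was 10.7%, against 3.97% of all. In that fit 9 neighbours were called as lower and 1 as higher (1.75% and 0.195%), against 0.365% and 1.09% of all.

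Of the 6 neighbours that fell, chr2:43444595-43455881 was the nearest H3K4me3-marked region of 3 of the distal regions. Its H3K4me3 was 169, 192 and 159 CPM in the knockdown libraries, against 231, 249 and 214 CPM in the control libraries (log2 fold change -0.41, SE 0.07, adjusted p = 0.0142, edgeR). The closest of the 3 was chr2:43570380-43575773, 114498 bp away, with H3K27ac of 40.4, 46.0 and 41.8 CPM in the knockdown libraries, against 59.0, 58.5 and 63.8 CPM in the control libraries. The others were chr2:43281482-43283043, on the far side of the neighbour, and chr2:43632860-43634549. H3K27ac at the neighbour itself overlapped between groups, with 205, 178 and 188 CPM in the knockdown libraries and 227, 174 and 222 CPM in the control libraries.

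At chr2:138720889-138724024 H3K4me3 fell to 13.8, 18.5 and 16.8 CPM in the knockdown libraries, against 28.2, 31.4 and 23.7 CPM in the control libraries (log2 fold change -0.75, SE 0.17, adjusted p = 0.0458, edgeR). The distal region 8819 bp away, chr2:138732844-138733433, had H3K27ac of 0.602, 2.71 and 4.07 CPM in the knockdown libraries, against 10.04, 7.56 and 8.46 CPM in the control libraries. This was the shortest distance among the 9 neighbours. At chr8:20159808-20161873 H3K4me3 fell to 11.2, 12.7 and 14.9 CPM in the knockdown libraries, against 24.2, 25.3 and 19.9 CPM in the control libraries (log2 fold change -0.83, SE 0.18, adjusted p = 0.0378, edgeR), with the distal region chr8:20146684-20147986 at 11821 bp.

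The remaining 3 that fell lay on chromosomes 20, 10 and 18. At chr20:30306588-30312084 the log2 fold change of H3K4me3 was -0.37 (SE 0.07, adjusted p = 0.0183, edgeR), with a distal region 13616 bp away. At chr10:44877476-44881277 it was -0.44 (SE 0.09, adjusted p = 0.0235, edgeR), with its distal region 122079 bp away. At chr18:13216732-13221392 it was -0.34 (SE 0.07, adjusted p = 0.0264, edgeR), and the distal region 44820 bp away, chr18:13266213-13270179, had H3K4me1 of 32.9, 33.7 and 24.7 CPM in the knockdown libraries, against 47.7, 57.5 and 38.3 CPM in the control libraries. That distal region held H3K9me3 of 8.08, 9.58 and 0 CPM in the knockdown libraries, against 0.888, 0 and 0 CPM in the control libraries, high in knockdown replicates 1 and 2 and without a read in replicate 3.

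The 3 neighbours that rose ran against the distal regions of which they were the nearest H3K4me3-marked region. At chr8:25900236-25904639 H3K4me3 was 37.4, 41.0 and 37.6 CPM in the knockdown libraries, against 16.5, 14.4 and 20.02 CPM in the control libraries (log2 fold change 1.19, SE 0.15, adjusted p = 0.000731, edgeR). The distal region 30006 bp away, chr8:25934646-25935707, had 1.81, 1.69 and 1.63 CPM of H3K27ac in the knockdown libraries, against 4.08, 8.54 and 5.86 CPM in the control libraries. At chr2:70022281-70027267 H3K4me3 was 20.4, 25.1 and 32.3 CPM in the knockdown libraries, against 14.2, 9.33 and 12.1 CPM in the control libraries (log2 fold change 1.14, SE 0.20, adjusted p = 0.0130, edgeR), 14624 bp from a distal region. The third, chr4:62065563-62069502 (log2 fold change 0.48, adjusted p = 0.0342, edgeR), lay 1181498 bp from its distal region.

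Many of these 9 calls were lost when certain single libraries were left out. Calls over all H3K4me3-marked regions changed too, from 35 lower and 80 higher. They were 9 and 24 without knockdown replicate 1, 15 and 53 without replicate 2 and 4 and 17 without replicate 3. Without control replicates 1, 2 and 3 in turn they were 8 and 46, 80 and 113, and 187 and 420. Only 1 of the 9 was still called without knockdown replicate 3, 2 without knockdown replicate 1, 2 without control replicate 1 and 3 without knockdown replicate 2, while 7 were without control replicate 2, and all 9 were called without control replicate 3 and with DESeq2. None of the 6 that fell was still called without knockdown replicate 1, without knockdown replicate 3 or without control replicate 1, and 1 was without knockdown replicate 2. All 9 kept the sign of their log2 fold change in each of these fits.

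Most of the chosen regions had no other of the 622 within 50 kb, a share for which no expected value was computed. Taking as a run those with at most 50 kb between neighbours, 89 of the 622 (14.3%) fell into 42 runs, of which 4 held 3 or more and the longest held 4. In the mirror set, 89 of 765 regions (11.6%) fell into runs. A region of the mirror set lay within 50 kb of 14 of the 622 (2.25%), fewer than the 89 that had another of the 622 that close. Over chromosomes, 6 regions lay on chromosome 13, where the overall share would give 17.4, 20 on chromosome 6 against 33.6, and 28 on chromosome 15 against 20.4. Others departed too, with 20 on chromosome 12 against 29.3 and 7 on chromosome 19 against 13.0. Chromosome 2 held 61 against 49.4, and chromosome 1 held 70 against 60.1. These chromosomes are picked from all, and no departure was tested.

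The longest run spanned chr1:208347496-208381609, 34114 bp that held 7 distal regions, of which 4 were chosen. Its widest region, chr1:208349753-208355619, had H3K4me1 of 46.9, 60.5 and 64.0 CPM in the knockdown libraries, against 94.7, 90.6 and 87.3 CPM in the control libraries. H3K27ac there was 14.8, 18.3 and 12.2 CPM in the knockdown libraries, against 32.3, 24.0 and 38.7 CPM in the control libraries. In both marks the groups stood well apart. The region beside it, chr1:208355853-208359197, had H3K27ac of 3.31, 7.10 and 5.43 CPM in the knockdown libraries, against 12.5, 11.8 and 14.6 CPM in the control libraries, and the outer members of the run were chr1:208347496-208348901 and chr1:208380422-208381609.

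A second run, chr1:15485116-15517414, held 3 chosen regions of 4. Its widest, chr1:15513053-15517414, had H3K27ac of 25.3, 21.7 and 18.2 CPM in the knockdown libraries, against 45.8, 47.3 and 32.2 CPM in the control libraries. The other two were chr1:15485116-15485956 and chr1:15505608-15507270. The run chr9:97629382-97680966 held 3 chosen regions of 13, chr9:97629382-97631978, chr9:97677257-97678144 and chr9:97680262-97680966. Within it, most distal regions were not chosen. The fourth run, chr1:228984279-229038191, held 3 chosen regions of 7 over 53913 bp.

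Other distal regions close to the 622 leaned the same way. Among 891 of them up to 10 kb away, the knockdown mean was lower in 76.2% for H3K4me1 and 77.7% for H3K27ac, with median log2 ratios of -0.27 and -0.44 (0.5 CPM added). From 10 to 50 kb, 1992 regions were lower in 65.6% and 69.7%. Beyond 500 kb, 27914 regions were lower in 47.9% and 53.6%, and over all 39685 the shares were 51.3% and 56.1%. Neighbouring regions share libraries and can share a broad domain of a mark, so these shares are a description. H3K4me3 at the same regions was lower in 54.9% up to 10 kb and in 47.9% beyond 500 kb, and H3K9me3 in 33.4% and 35.7%.

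**Figure D5:**
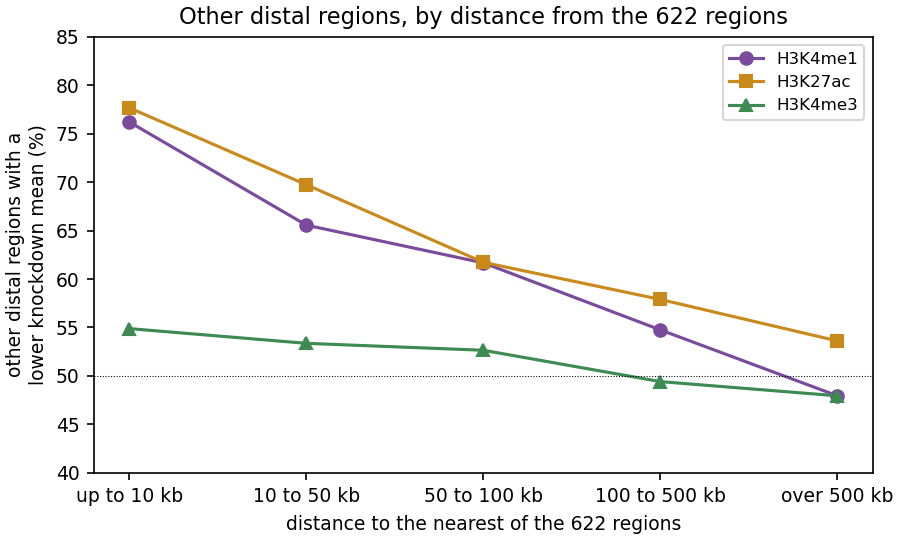
Percent of other distal regions whose knockdown mean was below the control mean, by distance to the nearest of the 622 regions, for H3K4me1, H3K27ac and H3K4me3 (the y axis runs from 40% to 85%). H3K4me1 and H3K27ac start at 76.2% and 77.7% within 10 kb and decline with distance to 47.9% and 53.6% beyond 500 kb, and H3K4me3 moves over a smaller range.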

How the data were processed

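The 24 deposited tables hold raw counts of reads for 1 shared list of 153244 regions, with no normalization. The submitters' processing notes list Bowtie2 2.4.5, bedtools 2.30.0 and deepTools 3.5.4 with hg19 as the build; the role of each tool, the making of the regions and any read filter are not known from the sources used here. Counts above 0 were even more often than odd (51.9% to 65.9% even per library), which counting both mates of a pair would give. Group, mark and replicate came from the sample titles.

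CPM used library totals. Tests were run per mark, over its 6 libraries, in edgeR 4.0.16 and R 4.3.3 (filterByExpr, TMM, quasi-likelihood test with robust estimation, group as the only term, Benjamini-Hochberg over all tested regions, threshold 0.05), with the SE of a log2 fold change as its size over the root of F. Alternatives were no filter or a strict one (3 libraries at the CPM that 30 reads make in the smallest), RLE size factors, library totals, limma-voom from limma 3.58.1, DESeq2 1.42.0, a replicate block and leaving out libraries. No pair of replicates had counts within sampling noise (chi-square per degree of freedom 3.06 to 8.38).

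Same-numbered knockdown and control libraries did not deviate together (Pearson correlations of deviations between -0.10 and 0.06), so numbers were not taken as pairs. Regions are named by a rule: the 10 with the widest gap, the 10 with the highest mean H3K27ac, the 3 with the smallest p in H3K4me3 and in H3K9me3, the members of the 3 largest runs (those tied at 3 members taken by the shorter span), and 3 regions on either side of the limit. The called neighbours, with distal regions to which they are nearest, are named in addition, after their values were seen. The 622 regions, the rule and the tests were chosen with earlier results of these data known. Positions count from 1. Sequences, gene names and marker lists, which need an hg19 genome and annotation, were not used here.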

Additional observations from a re-analysis of the deposited data

How the results depend on the processing

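The number of regions lower in both marks was 669 with TMM-scaled library sizes, 662 with RLE size factors, 536 with H3K4me3 under 1 CPM and 432 with levels of 5 CPM or more, against 622. It was 3001 in H3K4me1 alone and 3848 in H3K27ac alone. Asking only that each knockdown library lie below the control library of its own number (a replicate block) gave 2073. Leaving out 1 library gave between 1018 and 2614 regions, the most without control replicate 3, and leaving out a number in both groups gave 1895, 3012 and 3777; fewer libraries are easier to separate by construction.

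Calls at the regions in H3K4me3 were 0 except 1 lower call without a filter (0.162%, against 0.238% of all regions tested). In H3K9me3 they were between 0 and 1 when a library was left out. No region had enough H3K4me3 for the strict filter. Calls at the nearest H3K4me3-marked regions numbered 9 in H3K4me3, 33 without a filter, 26 with DESeq2, 11 with the replicate block and between 1 and 45 with a library left out, 45 being without control replicate 3. Calls over all H3K4me3-marked regions also changed with the setting. Without a filter 4.81% of the neighbours were lower and 1.30% higher, against 1.55% and 2.10% of all. With DESeq2 the shares were 3.70% and 1.11%, against 0.911% and 1.59%. With the replicate block they were 1.11% and 0.926%, against 0.304% and 0.734%. Without control replicate 3 they were 5.56% and 2.78%, against 1.32% and 2.97%. In H3K27ac the calls at these neighbours numbered 0, 3 without a filter, 5 with DESeq2, 2 with limma-voom and between 0 and 10 with a library left out. Without a filter 1 was lower (0.185%) and 2 higher (0.370%), against 0.141% and 0.254% of all H3K4me3-marked regions. Why the tools differ was not tested. Against 6 lower and 3 higher calls in H3K4me3 at these neighbours, the replicate block gave 6 lower and 5 higher, and no lower call was made without knockdown replicate 1 (2 higher), without knockdown replicate 3 (1 higher) or without control replicate 1 (2 higher). The median log2 fold change of H3K27ac at the neighbours was -0.09, and 0.02 without control replicate 1, where 47.8% of them were negative and, at an unadjusted p under 0.05, 16 were lower and 17 higher. Over all H3K4me3-marked regions that median was 0.03, and 0.10 without control replicate 1.

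The small counts per region limit these results: 44.5% of the regions had a gap under 0.1 on the log2 scale. Counts of reads are not counts of molecules, and read depth speaks to counting error only.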
